A study of Mus musculus with 96 samples.

Results

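The cytochrome P450 genes of families 1 to 3 were followed through 4 mouse tissues in control and sleep-deprived animals. Members were all features of the count table whose Ensembl identifier carries, in GENCODE M21, a symbol made of Cyp, a family number from 1 to 3, a single subfamily letter and a number. This rule gave 58 of the 54833 features, of which 3 belonged to family 1, 48 to family 2 and 7 to family 3. Symbols with more than one letter, such as Cyp2ab1, Cyp3a41a and Cyp3a41b, and pseudogenes fall outside it. Of the 58 members, 57 had at least 1 count in the 96 libraries, and Cyp2c68 had none in a total of 3358 M counts, which allows a level of up to 0.000893 CPM (counts per M counts, counting error only).

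Cytochrome P450 enzymes are heme proteins of the endoplasmic reticulum that insert an oxygen atom into drugs, toxins, steroids, bile acids and fatty acids, with electrons delivered by the reductase Por and by cytochrome b5. Families 1 to 3 carry most of the metabolism of foreign compounds, and the liver, where they are most abundant, sets the clearance of many drugs by them. Family 1 is classically induced through the aryl hydrocarbon receptor Ahr, and many family 2 and 3 genes through the nuclear receptors CAR (Nr1i3) and PXR (Nr1i2), while growth hormone gives several mouse members a male or female bias and the clock-controlled PAR bZIP factors Dbp, Tef and Hlf are known to act on part of the family.

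All mice were wild-type male C57BL/6, 6 to 8 weeks old, housed under a 12 h light/dark cycle and sampled in constant darkness, in all groups alike. Control mice (CON) were undisturbed, and sleep-deprived mice (SD) spent 10 h of their resting phase in a slowly turning drum with food and water at hand, so that sleep loss and forced movement cannot be told apart. Sampling followed the deprivation, so in SD the time of day and the time since deprivation cannot be told apart either. Forebrain, cerebellum, liver and kidney were collected at intervals of 4 h between CT4 and CT24 (CT, circadian time), which gave 6 times, 48 groups of 2 replicates and 24 libraries per tissue. Total RNA depleted of ribosomal RNA was sequenced in stranded libraries, and library totals ranged from 24.8 to 58.5 M counts. The study describes the 2 replicates of a group as biological and the mice as allocated to the groups at random. Which libraries of different organs come from 1 mouse is not given in the sources used here, and p-values measure the spread between these libraries. In kidney, the titles and the characteristics given for the samples disagree on condition or time in 20 of 24 cases. Titles were used, and kidney results rest on them, whereas no conflict occurred in the other tissues. For this check the time points of the characteristics, which are numbered lower than the CT hours of the titles, were matched to them in order. Peak times below are in the CT hours of the titles. The kidney CON CT20 replicate 1 library stands apart by hepatocyte transcripts, with Alb (albumin) at 92.5 CPM against 1.68 to 12.6 CPM in the other 23 kidney libraries, and results that rest on it are given with and without it. All CPM values below were scaled with TMM factors within a tissue.

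The members include near-identical copies, and the reads that fit several of them were removed when the authors kept only alignments with a mapping quality of 60. To see where this matters, each transcript was cut into windows of 50 and of 150 bases, the read length, and searched in all other annotated genes. In 19 of 58 members more than 20% of the 50-base windows occurred in another gene, while 11 members shared none, and 19 shared at least 1 window of 150 bases. Cyp2c40 shared most, with 72.1% of its 50-base and 29.1% of its 150-base windows in Cyp2c67, Cyp2c68 or Cyp2c69. Cyp2c69 followed with 54.8% and 22.5%, Cyp2c67 with 52.8% and Cyp2c68 with 43.3% of 50-base windows. Cyp2a5 shared 40.8% and Cyp2a4 38.0% of 50-base windows, and 5.79% and 4.22% of 150-base windows. The coding sequences of these 2 genes were 98.4% identical. Counts of such members are too low by an amount that cannot be read from the files, and differences within a pair such as Cyp2a4 and Cyp2a5 are uncertain. Cyp3a11, Cyp2c70 and Cyp2f2 shared no 50-base window, and Cyp2e1 shared 4.76% and Cyp2c29 1.30%. Another annotated gene overlaps 8 members on the same strand, among them Cyp2c29 (by Cyp2c53-ps), and any reads lost to such overlap were not counted. Cyp2j5, described in mouse kidney and liver as an arachidonic acid epoxygenase, had 113 counts over all 96 libraries although it shared 0.174% of its windows, and the reason for this low count was not tested (this gene was chosen after its values were seen).

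**Figure D1:**
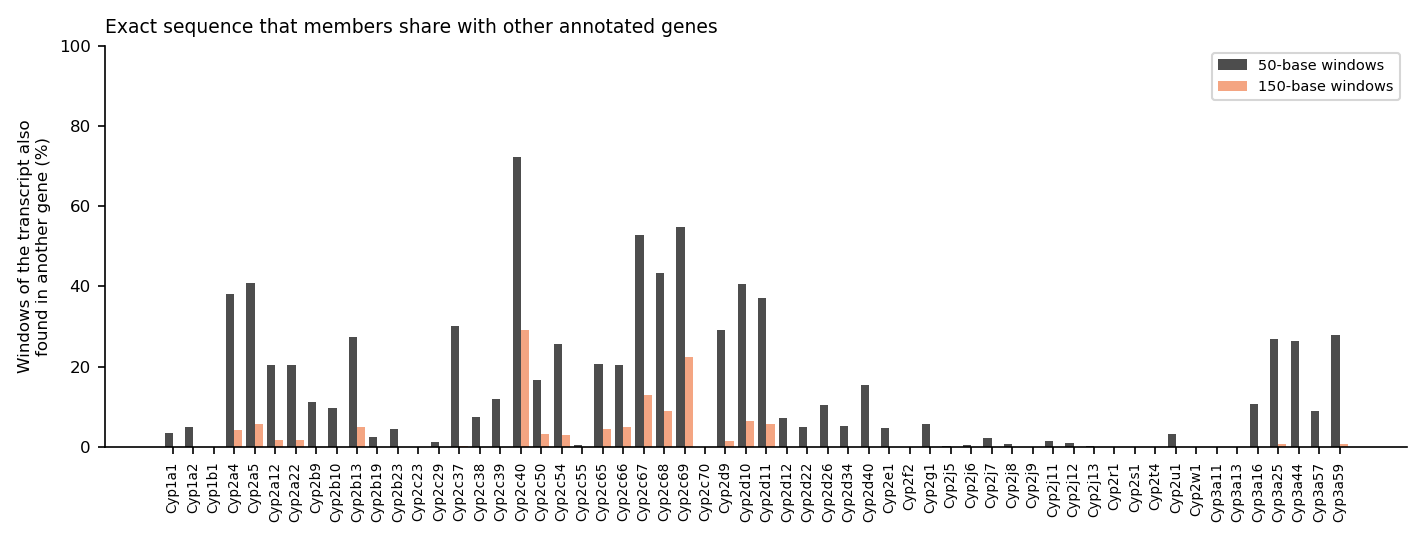
Share of each member's transcript windows (%) that occur exactly in another annotated gene, for windows of 50 bases (dark bars) and 150 bases (light bars). The Cyp2c40, Cyp2c67, Cyp2c68 and Cyp2c69 group stands highest, with 72.1% at 50 bases for Cyp2c40, and 11 members have no bar.

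Cyp2a4 and Cyp2a5, which were both lower in liver after sleep deprivation as described below, lie on the plus strand of chromosome 7 (GRCm38), Cyp2a4 at chr7:26307169-26315088 and Cyp2a5 at chr7:26835305-26843548, with Cyp2b23, Cyp2b19 and Cyp2g1 between them. Promoter windows from RefSeq (GRCm38.p6, 250 bases before to 50 after the annotated start) were found for 50 of the 58 members. The first 210 bases of 3 of them are shown because these genes passed the test of a 24 h profile in control liver and hold the same letters near the start, all on the plus strand, at chr7:26306942-26307151 for Cyp2a4, chr7:26835089-26835298 for Cyp2a5 and chr7:25897408-25897617 for Cyp2b10. Capitals mark the letters TTGCATAA, a relative of the D-box motif that PAR bZIP factors bind.
Cyp2a4: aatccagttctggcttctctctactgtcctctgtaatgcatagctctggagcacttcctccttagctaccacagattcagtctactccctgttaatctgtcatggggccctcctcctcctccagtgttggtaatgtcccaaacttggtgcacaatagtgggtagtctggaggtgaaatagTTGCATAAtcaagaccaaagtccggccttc
Cyp2a5: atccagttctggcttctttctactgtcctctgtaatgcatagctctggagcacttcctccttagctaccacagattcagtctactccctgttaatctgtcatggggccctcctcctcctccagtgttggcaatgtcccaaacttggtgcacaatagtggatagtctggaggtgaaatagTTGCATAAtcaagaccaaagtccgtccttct
Cyp2b10: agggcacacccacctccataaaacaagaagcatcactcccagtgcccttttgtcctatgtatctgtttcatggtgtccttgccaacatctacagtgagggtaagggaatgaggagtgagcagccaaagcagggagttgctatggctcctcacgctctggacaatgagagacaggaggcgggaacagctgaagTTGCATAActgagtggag
The Cyp2a4 and Cyp2a5 windows were identical at 205 of 209 aligned bases, so the likeness of this pair extends upstream of the genes.

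The letters TTGCATAA, searched on both strands, occurred in 0.743% of 32851 RefSeq promoters of this length and in 5 of the 50 members with a promoter, namely Cyp2a4, Cyp2a5, Cyp2b10, Cyp2b19 and Cyp2b23, which all lie on chromosome 7. This motif was picked after the sequences had been seen, so the count is a description. The other motifs searched on both strands were 2 D-box forms, an E-box and the core of the Ahr response element. TTATGTAA occurred in 0.938% and TTACGTAA in 0.119% of all promoters and in no member. CACGTG occurred in 7.15% of promoters and in Cyp2j6 among members. TNGCGTG occurred in 5.07% and in Cyp2c68 among members. A match or its absence in these 300 bases says nothing on binding.

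Control levels separated the organs by more than the spread between libraries. In control liver 37 members had a median of at least 1 CPM, 27 of at least 10 CPM and 21 of at least 100 CPM. In control kidney these numbers were 19, 13 and 5, and in both forebrain and cerebellum 9, 4 and 0. The 58 members together took 1.67 ± 0.146% of all counts in control liver libraries (mean ± SD, n = 12) and, as medians, 0.154% in control kidney, 0.00941% in forebrain and 0.0115% in cerebellum. In these bulk tissues fewer cells of a type and less RNA per cell cannot be told apart.

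Per length, given as CPM per kilobase of exon (mean ± SD, n = 12 control libraries), Cyp2e1, which oxidises ethanol, ketones and acetaminophen, stood first in liver at 1653 ± 362. Next came Cyp2f2, known for the bioactivation of naphthalene, at 527 ± 80.1, and Cyp1a2, an Ahr target that metabolises caffeine, at 481 ± 67.6. Then followed Cyp3a11, the main PXR-inducible member, at 422 ± 97.6, Cyp2c70, which makes the rodent muricholic bile acids, at 418 ± 111, and Cyp2d9, a male-biased testosterone hydroxylase, at 403 ± 72.5. Cyp2d10 had 358 ± 31.0 and Cyp2c29 300.4 ± 79.8. Cyp2e1 was the only one of these 8 whose lowest library lay above the highest library of every other, and the 7 below it overlapped with their neighbours within their SD.

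In control kidney the order per length was different. Cyp2e1 again stood first at 228 ± 40.6, followed by Cyp2j11, a member of the Cyp2j epoxygenase subfamily, at 139 ± 9.15 and by Cyp2d26 at 102 ± 7.51. Cyp2j13 had 46.0 ± 7.21, Cyp2a4 29.2 ± 8.34, Cyp2j6 29.0 ± 4.33, Cyp2a5 20.4 ± 7.13 and Cyp2d9 19.9 ± 3.73. Cyp2a4 did not differ from Cyp2j6, nor Cyp2a5 from Cyp2d9, beyond the SD, and Cyp2j13 lay above Cyp2a4 by more than both SDs together. In forebrain the highest were Cyp2j6 at 7.52 ± 0.813, Cyp2t4 at 6.22 ± 1.05 and Cyp2u1, a fatty acid hydroxylase known from brain, at 4.36 ± 0.371. In cerebellum they were Cyp2r1, the vitamin D hydroxylase, at 9.55 ± 1.10, Cyp2j6 at 6.78 ± 0.633 and Cyp2t4 at 6.00 ± 1.56.

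**Figure D2:**
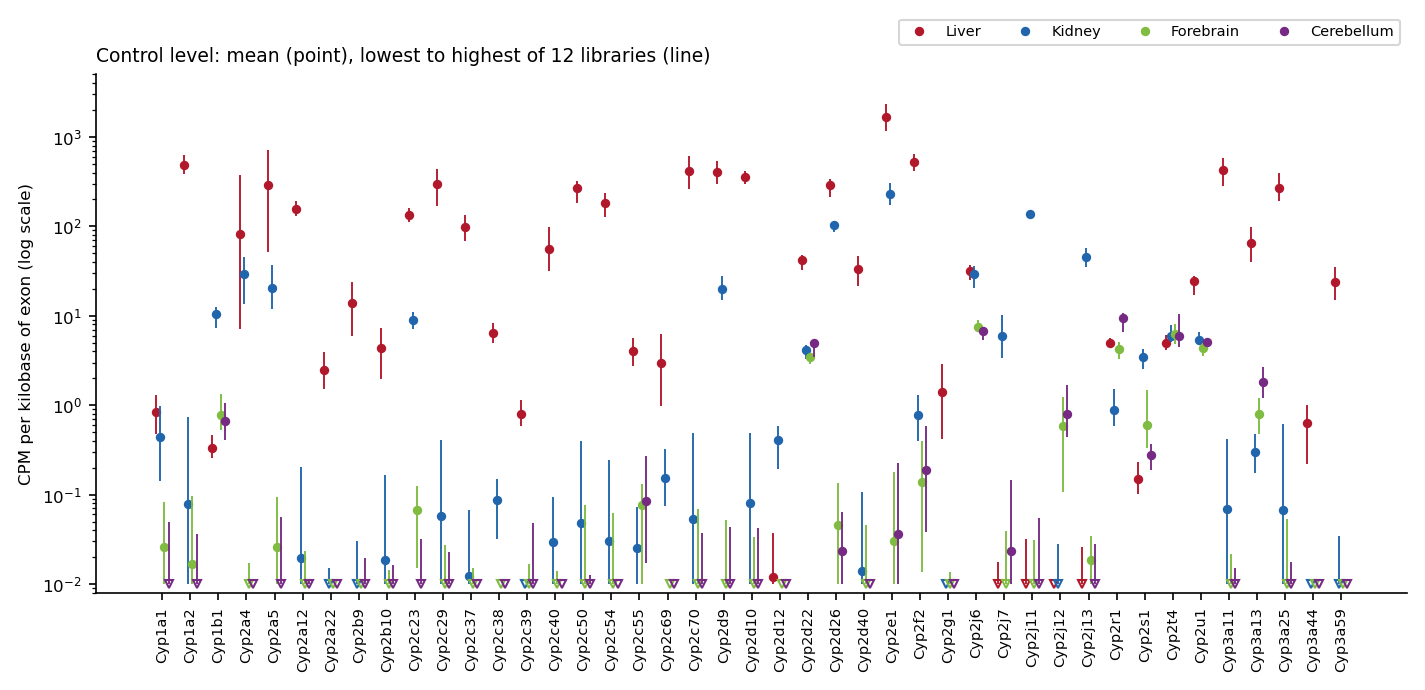
Control level of each member in the 4 tissues, in CPM per kilobase of exon on a log axis. Points are means of 12 libraries, lines run from the lowest to the highest library and stop at the axis floor, and open triangles at 0.01 mark means below it. Cyp2e1 stands first in liver at 1653 and in kidney at 228, Cyp2j11 and Cyp2j13 are high in kidney, and all means in forebrain and cerebellum lie below 10.

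The difference between organs was tested in control animals at each of the 6 times (edgeR quasi-likelihood test, adjusted p under 0.05 and a log2 difference over 1). Of the members tested, 32 were higher in liver at all 6 times, where 10.9% of all genes tested were, and 6 were higher in kidney at all 6 times, where 15.5% of all genes were. The kidney genes were Cyp1b1, Cyp2d12, Cyp2j7, Cyp2j11, Cyp2j13 and Cyp2s1. Cyp1b1, which hydroxylates estrogens, had a mean of 61.5 ± 9.79 CPM in control kidney (n = 12, SD) and 1.96 ± 0.369 CPM in liver. Cyp2j13 had 216 ± 33.8 CPM in kidney. Cyp2s1, an epithelial member, had 17.1 ± 3.11 CPM in kidney and 0.740 ± 0.174 CPM in liver. Cyp2a4, Cyp2j6 and Cyp2t4 were among the 7 members that met the criterion for neither organ. Cyp2t4 had 8.15 ± 1.02 CPM in liver, 9.91 ± 1.23 in kidney, 10.3 ± 1.74 in forebrain and 9.90 ± 2.57 in cerebellum. These CPM were scaled within each tissue, so differences of this size do not rank the tissues. In the test of both organs together Cyp2t4 was higher in liver by a log2 of 0.25 to 0.51 over the times. The largest difference was at CT8 (adjusted p = 0.00974, edgeR).

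To determine how sleep deprivation affected the family, SD was compared with CON over all 6 times within each tissue (edgeR quasi-likelihood test with time as a factor, Benjamini-Hochberg adjustment over all genes tested, 12 libraries per condition). In liver 41 members passed the filter on low counts and 20 differed, 17 higher and 3 lower in SD. Among all 19708 genes tested in liver 18.2% differed, 9.42% higher and 8.80% lower. The median log2 difference was 0.17 over the 41 members and 0.01 over all genes. In kidney 0 of 26 members differed at a background of 2.30% of genes (0.181% higher and 2.12% lower). In forebrain 0 of 14 members differed at a background of 0.0303%, and in cerebellum 0 of 14 at 0%. The unadjusted p was under 0.05 for 1 member in kidney, 0 in forebrain and 3 in cerebellum, and DESeq2 called 0 in each of these tissues as well.

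The liver result depends in part on scaling. With library sizes alone, without TMM factors, the median of all liver genes moved to -0.13. Then 15 members were called, 10 higher and 5 lower, beside 358 higher and 3763 lower of all 19708 genes. The 7 calls lost were Cyp2a12, Cyp2c29, Cyp2c39, Cyp2c69, Cyp2d9, Cyp2d22 and Cyp2j6, none of the 20 changed sign, and Cyp2j8 and Cyp2r1 were called lower instead. The summed share of all counts, which needs no scaling factor, was 1.67 ± 0.146% in CON and 1.88 ± 0.102% in SD liver (mean ± SD, n = 12 each), and the groups overlapped.

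**Figure D3:**
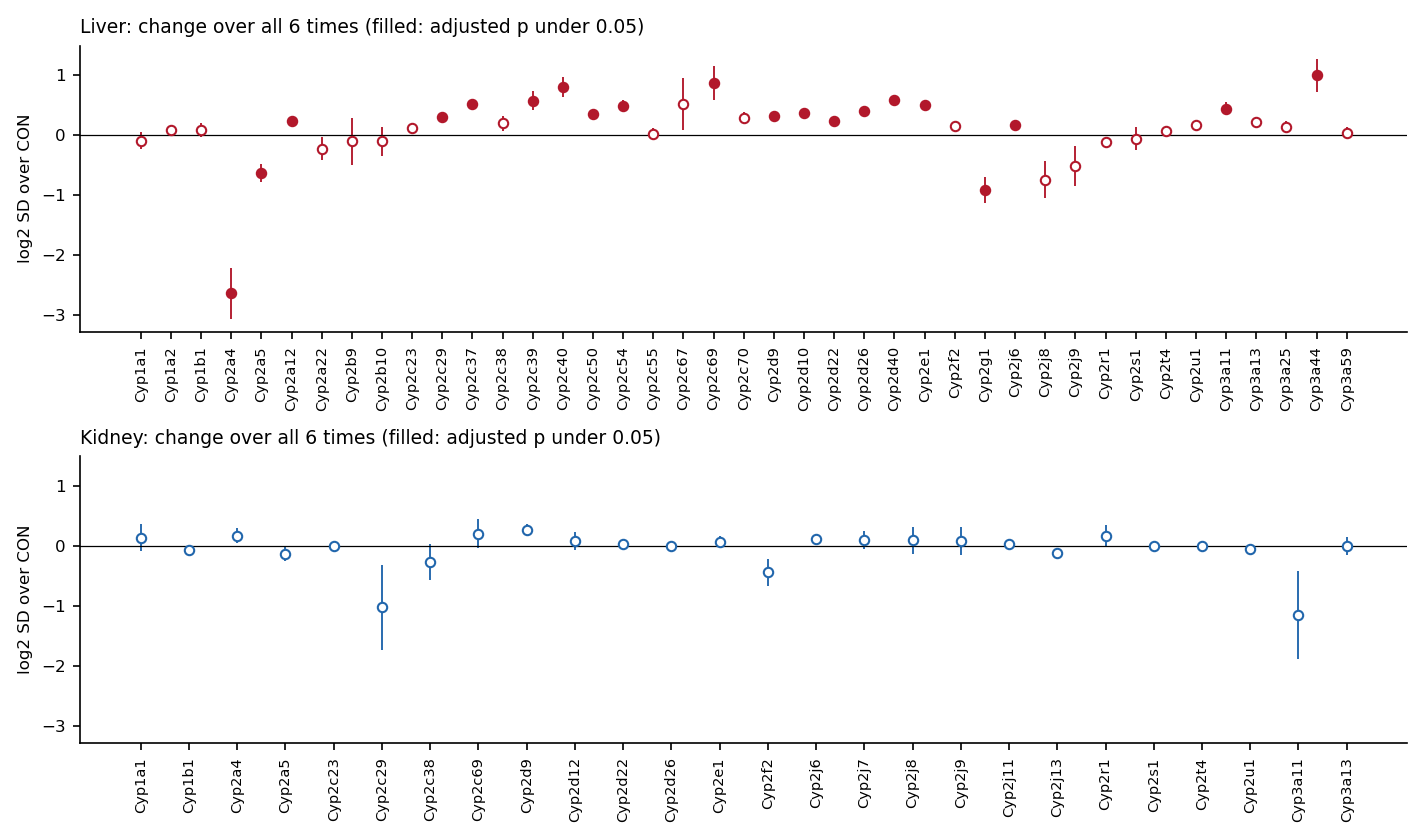
Log2 difference SD minus CON over all times (vertical axis) for each member tested in liver (top) and kidney (bottom), with bars of 1 SE. Filled points passed an adjusted p of 0.05 and occur in the liver panel alone, 17 above and 3 below 0, with Cyp2a4 at -2.63 farthest out.

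Cyp2a4, a steroid hydroxylase with a female bias in mouse liver, had the largest change. In CON liver its level was 12.5 CPM in the lowest, 63.4 in the median and 656 in the highest library, and in SD liver 2.24, 15.6 and 71.6 CPM. The ranges over all times overlapped, but at 5 of 6 times both SD libraries lay below both CON libraries, CT20 being the exception. Such counts of times, here and below, describe groups of 2 libraries, and their share over all genes was not counted. The level in SD was 6.21-fold lower (log2 -2.63, SE 0.43, adjusted p = 0.000195, edgeR). Its neighbour Cyp2a5, the coumarin hydroxylase, had 108, 493 and 1501 CPM in the lowest, median and highest CON library and 147, 286 and 719 CPM in SD. Its mean was lower in SD at 6 of 6 times and both SD libraries were below both CON libraries at 4 times (log2 -0.63, SE 0.15, adjusted p = 0.00437, edgeR). These 2 genes share 38.0% and 40.8% of their 50-base windows, and 4.22% and 5.79% of their windows of 150 bases, the read length. Some of their reads were therefore removed or cannot be assigned between them.

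Cyp2g1, a steroid hydroxylase best known from olfactory mucosa, lies between them and was also lower. It had 0.889, 2.59 and 6.15 CPM in the lowest, median and highest CON liver library and 0.610, 1.41 and 4.02 CPM in SD, so the groups overlapped. The mean was lower in SD at 6 of 6 times (log2 -0.92, SE 0.22, adjusted p = 0.00488, edgeR). Neither of the other tested Cyp2a genes was called lower. Cyp2a12, which hydroxylates bile acids and steroids, was higher, with a median of 544 CPM in CON and 639 in SD (log2 0.23, SE 0.06, adjusted p = 0.00456, edgeR), and its call was lost with library sizes alone. Cyp2a22 did not pass (log2 -0.22, adjusted p = 0.465).

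Cyp2e1, at chr7:140763739-140774987 on the plus strand (GRCm38), rose in SD liver with the smallest p of the family. Its 12 CON libraries ran from 2535 to 5066 CPM with a median of 3467, and its SD libraries from 3835 to 6249 with a median of 5039. At 6 of 6 times both SD libraries lay above both CON libraries, and the rise was 1.42-fold (log2 0.51, SE 0.07, adjusted p = 4.9e-05, edgeR). Among 19707 other genes, the 3 whose log2 CPM followed Cyp2e1 most closely over the 24 liver libraries were Slc27a2, a fatty acid transporter and acyl-CoA synthetase (Pearson r = 0.947), Slco1b2, a liver anion transporter (r = 0.926), and Syce1 (r = 0.913). Syce1 lies on the opposite strand and ends 2241 bases beyond Cyp2e1. Among members the closest were Cyp2d22 (r = 0.733), Cyp2d9 (r = 0.691) and Cyp2d10 (r = 0.683). These correlations are a description over libraries that share tissue and time series.

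All 5 tested members of the Cyp2d subfamily, relatives of the human drug-metabolising CYP2D enzyme, were higher in SD liver. The Cyp2d40 libraries ran from 39.0 to 84.9 CPM in CON with a median of 62.0 and from 49.4 to 134 CPM in SD with a median of 87.6. Both SD libraries were above both CON libraries at 6 of 6 times (log2 0.59, SE 0.08, adjusted p = 6.21e-05, edgeR). Cyp2d10 had a median of 594 CPM in CON and 752 in SD (log2 0.36, SE 0.06, adjusted p = 0.000275, edgeR). Cyp2d26, the most kidney-abundant of the subfamily, had medians of 538 and 678 CPM in liver (log2 0.39, SE 0.07, adjusted p = 0.000481, edgeR). For both genes the SD libraries lay above the CON libraries at 5 of 6 times. Cyp2d9 had medians of 1042 and 1390 CPM (log2 0.32, SE 0.08, adjusted p = 0.0096, edgeR) and Cyp2d22 of 171 and 190 CPM (log2 0.23, SE 0.07, adjusted p = 0.0199, edgeR). The last 2 calls were lost with library sizes alone. Cyp2d9 and Cyp2d10 share 29.0% and 40.5% of their 50-base windows and 1.54% and 6.40% of their 150-base windows with other genes.

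In the Cyp2c subfamily, whose enzymes hydroxylate and epoxidise arachidonic and linoleic acid, 7 of 12 tested members were higher and 0 lower. Cyp2c54 had 225 to 418 CPM in CON with a median of 320 and 300 to 624 CPM in SD with a median of 443, and its SD libraries were above the CON libraries at 6 of 6 times (log2 0.49, SE 0.09, adjusted p = 0.000564, edgeR). Cyp2c37 had medians of 177 and 261 CPM (log2 0.51, SE 0.10, adjusted p = 0.000984, edgeR). Cyp2c50 had medians of 778 and 995 CPM (log2 0.35, SE 0.07, adjusted p = 0.00205, edgeR). These 3 genes share between 16.6% and 30.1% of their 50-base windows, with one another and, for Cyp2c37, also with Cyp2c38 and Cyp2c69. At 150 bases the shares ran from 0.299% to 3.22%. Cyp2c29, an abundant CAR target, had medians of 907 and 1157 CPM (log2 0.30, SE 0.09, adjusted p = 0.023, edgeR). Cyp2c39, a retinoic acid hydroxylase, was low, with medians of 1.37 and 2.08 CPM (log2 0.57, SE 0.15, adjusted p = 0.0114, edgeR). Cyp2c70 did not pass, with medians of 832 and 1106 CPM (log2 0.28, 95% interval 0.08 to 0.48 from the SE, adjusted p = 0.0584, edgeR), although DESeq2 called it (adjusted p = 0.0293).

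Cyp2c40 and Cyp2c69, the members with the largest share of windows found in other genes, rose by the largest factors in this subfamily. Cyp2c40 had 64.2, 109 and 202 CPM in the lowest, median and highest CON library and 110, 193 and 354 CPM in SD (log2 0.81, SE 0.17, adjusted p = 0.00173, edgeR). Cyp2c69 had 1.66, 4.27 and 10.6 CPM in CON and 3.69, 8.51 and 31.5 CPM in SD (log2 0.87, SE 0.28, adjusted p = 0.032, edgeR). The highest library of both was SD CT8 replicate 2. Without it the log2 difference of Cyp2c40 was 0.70 (adjusted p = 0.00323), and that of Cyp2c69 was 0.69 with its call lost (adjusted p = 0.0557). The Cyp2c69 call was lost in 9 of 24 fits that each left out 1 liver library. This same library was the highest of its group for Cyp2b9, a female-biased member named after its values were seen, at 89.7 CPM against a group median of 20.7, and for Cyp3a44.

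Of the 5 tested Cyp3a genes 2 were higher in SD liver. Cyp3a11, the mouse counterpart of the main human drug-metabolising CYP3A enzyme, had 1423, 2029 and 2970 CPM in the lowest, median and highest CON library and 2059, 2854 and 4186 CPM in SD. The groups overlapped, the mean was higher at 6 of 6 times and the rise was 1.35-fold (log2 0.44, SE 0.11, adjusted p = 0.00638, edgeR). Cyp3a44, a low and female-biased gene, had medians of 1.21 and 2.29 CPM (log2 0.99, SE 0.28, adjusted p = 0.0151, edgeR), with 7.82 CPM in SD CT8 replicate 2, and without this library its log2 difference was 0.76 (adjusted p = 0.0382). Cyp3a44 shares 26.5% of its 50-base windows with other Cyp3a genes, and 0% of its 150-base windows with any other gene. Cyp3a13 had a log2 difference of 0.21 (adjusted p = 0.111), Cyp3a25 of 0.13 (adjusted p = 0.40) and Cyp3a59 of 0.03 (adjusted p = 0.865), none of which passed (edgeR).

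Cyp2j6 was higher in control liver than in control kidney by a log2 of 0.46 to 0.99 over the times, below the threshold set for organs. In liver it had 91.6 to 134 CPM with a median of 118 in CON and 116 to 142 CPM with a median of 131 in SD. It was called slightly higher in SD liver (log2 0.17, SE 0.05, adjusted p = 0.0311, edgeR). This call was lost in 9 of 24 fits that left out 1 library and with library sizes alone. No member of Cyp1a, Cyp1b or Cyp2b passed. Cyp1a2 had 777 to 1251 CPM in CON and 739 to 1289 CPM in SD, with medians of 949 and 1026 CPM (log2 0.08, 95% interval -0.08 to 0.25, adjusted p = 0.555, edgeR). The interval of Cyp1a1, the inducible Ahr target, was -0.37 to 0.19. Cyp2b10, the classical CAR target, had a median of 7.43 CPM in CON and 7.11 in SD, with an interval of -0.58 to 0.37. Cyp2f2 had medians of 1113 and 1178 CPM (log2 0.14, interval -0.00396 to 0.29, adjusted p = 0.202, edgeR).

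Genes that act around the family were taken from lists. Among all genes tested in liver 9.42% were higher and 8.80% lower, with a median log2 of 0.01. Of the 14 tested sensors and liver regulators 7 were higher and 1 lower in SD liver (median log2 0.20). The higher ones included the receptors CAR (Nr1i3, log2 0.21, adjusted p = 0.0372), PXR (Nr1i2, log2 0.24, adjusted p = 0.0165) and their partner Rxra (log2 0.18, adjusted p = 0.0131), while Ahrr, the Ahr repressor, was lower (log2 -0.86, adjusted p = 0.0116) and Ahr itself did not pass (log2 0.12, adjusted p = 0.397). Of the 10 genes of electron and heme supply 4 were higher and 1 lower. The reductase Por had a log2 difference of 0.44 (adjusted p = 0.0127), Cyb5a of 0.27 (adjusted p = 0.00295), and the heme-degrading Hmox1 was lower (log2 -0.35, adjusted p = 0.00709). Of the 3 tested PAR bZIP genes and their antagonist Nfil3, Tef (log2 0.25, adjusted p = 0.0413) and Hlf (log2 0.21, adjusted p = 0.0111) were higher. Dbp had a mean of 0.00679 CPM in CON liver and was not tested. The reason for this near-zero count was not examined, so it is not read as absence of the transcript. All these p-values are from edgeR.

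Target genes outside the family were mixed, beside the 9.42% higher and 8.80% lower of all liver genes. Of 18 CAR and PXR targets 2 were higher and 4 lower (median log2 -0.07), the lower ones being the glutathione transferases Gstm1 (log2 -1.50, adjusted p = 2.3e-05), Gstm3 (log2 -1.57, adjusted p = 9.6e-05) and Gsta4 (log2 -0.70, adjusted p = 0.000199) and the transporter Abcc3. Of 6 Ahr targets 1 was higher and 1 lower. Of 11 male-biased genes 4 were higher and 0 lower (median log2 0.41), among them Hsd3b5 (log2 0.51, adjusted p = 0.000986) and Slco1a1 (log2 0.44, adjusted p = 0.000646), and of 10 female-biased genes 1 was higher and 0 lower (edgeR).

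Markers of cell types moved along with these results in liver. The share of all liver genes was again 9.42% higher and 8.80% lower. Of 8 hepatocyte markers 5 were higher and 0 lower in SD (median log2 0.25), and their summed level was 66044 to 102969 CPM in CON and 66757 to 109831 CPM in SD. Of 8 perivenous markers, the zone in which Cyp2e1 and Cyp1a2 are known to be most abundant, 4 were higher and 0 lower, with a sum of 1430 to 2122 CPM in CON and 1547 to 2553 CPM in SD. Of 8 periportal markers 2 were higher and 1 lower, with sums of 2329 to 5136 and 2998 to 6841 CPM. All 5 tested macrophage and Kupffer cell markers were lower (median log2 -0.44), with a sum of 793 to 1378 CPM in CON and 576 to 940 CPM in SD, and Cd68 was at 0 in every liver library. The reason for the Cd68 value and the part of these shifts in the result for the P450 genes were not tested.

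When all 6 times were tested jointly in liver, 6 of 41 members differed at some time, namely Cyp2a4, Cyp2c37, Cyp2c40, Cyp2c54, Cyp2d40 and Cyp2e1, at a background of 3.56% of genes (edgeR). The joint calls of Cyp2c54 and Cyp2c40 were lost in 21 and 17 of 24 fits that left out 1 library, that of Cyp2c37 in 5, and those of Cyp2c54 and Cyp2c40 also with library sizes alone. Cyp2c54 was not called with the replicate number as a block either. DESeq2 called 16 members in this test, beside 2017 of all 19708 genes. Taken singly, 1 time gave a call by edgeR, Cyp2a4 at CT24, where the 2 CON libraries had 386 and 656 CPM and the 2 SD libraries 30.2 and 35.4 CPM (log2 -3.99, SE 0.67, adjusted p = 0.0444, edgeR), at a background of 0.238% of genes at that time. The background at the other times was 0.0101% at CT4, 0.406% at CT8 and 0% at CT12, CT16 and CT20. The Cyp2a4 call was lost in 8 of 24 fits that left out 1 library, with an adjusted p up to 0.535, namely CON CT24 replicate 2, SD CT4 replicate 1 and both SD replicates of CT12, CT20 and CT24, and in those fits the lone library of a group is assumed to vary like the other groups. Single-time calls depended on the tool. DESeq2 called Cyp2a4 and Cyp2d40 at CT4, Cyp2c54 and Cyp2e1 at CT8 and Cyp2a4, Cyp2c37 and Cyp2d40 at CT16. At CT24 it called Cyp2a4, Cyp2c37, Cyp2d10 and Cyp2e1. Over all 19708 genes DESeq2 called 28 to 472 at a time. Without the filter on low counts edgeR called 2 to 15 members at each time, beside 330 to 1102 of 32589 genes. At CT20, Cyp2a4 had 45.3 and 64.9 CPM in CON and 71.6 and 24.7 CPM in SD, and the groups overlapped.

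The profile over 24 h in control liver was described with a fit of a cosine and a sine of 24 h (edgeR quasi-likelihood test). Of 41 members 6 passed, at a background of 8.79% of genes. Cyp2a5 had the smallest p, with a peak-to-trough difference of 2.68 on the log2 scale and a fitted peak at 21.8 h (adjusted p = 0.00129). Its mean was 212 CPM at CT12 and 1392 CPM at CT24, and both libraries at CT24 were above all others. Cyp2a4 peaked at 22.2 h with a difference of 3.34 (adjusted p = 0.0414), and this call was lost in 7 of 12 fits that left out 1 library. Its CON libraries were far lower at CT20 than at CT24, as given above. Cyp2g1 peaked earlier, at 16.7 h (difference 1.70, adjusted p = 0.00919), with a mean of 5.14 CPM at CT16 and 1.66 CPM at CT8.

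The other 3 peaked in the first part of the day. Cyp2b10 peaked at 4.77 h (difference 1.63, adjusted p = 0.0123), with a mean of 14.3 CPM at CT4 and 4.71 CPM at CT16. Cyp2c55, another CAR and PXR target, peaked at 7.81 h (difference 0.92, adjusted p = 0.017), with 11.1 CPM at CT4 and 5.80 CPM at CT24. Cyp2d40 peaked at 1.93 h (difference 0.71, adjusted p = 0.0435). This did not hold with library sizes alone, with the replicate number as a block or in 8 of 12 fits that left out 1 library. Cyp2e1 did not pass (difference 0.64, peak 19.7 h, adjusted p = 0.0523). Cyp2a4 and Cyp2a5 thus had fitted peaks late in the 24 h, at 22.2 and 21.8 h, and Cyp2b10, whose window also holds TTGCATAA, had one at 4.77 h.

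In SD liver 6 of 41 members passed, at a background of 11.8%, where a profile over the day is also one over the time since deprivation. Cyp2a5 (difference 1.86, peak 22.3 h, adjusted p = 0.00019), Cyp2b10 (3.15, 5.01 h, adjusted p = 0.00321) and Cyp2c55 (1.55, 9.12 h, adjusted p = 0.000789) passed in both conditions. Cyp2c29 (0.93, 7.36 h, adjusted p = 0.0072), Cyp3a13 (0.82, 1.40 h, adjusted p = 0.0279) and Cyp1a1 (0.99, 2.25 h, adjusted p = 0.0226) passed in SD. The Cyp3a13 call was lost in 5 of 12 fits that left out 1 library (adjusted p up to 0.089), and the Cyp1a1 call in 2 of 12 and with library sizes alone (adjusted p = 0.0593). All these are edgeR values. Cyp2b10 had a mean of 18.3 CPM at CT8 and 1.71 CPM at CT16 in SD. Passing in one condition does not show a difference: the test of the difference in rhythm between SD and CON called 0 of 41 members and 0% of all liver genes, with 2 members at an unadjusted p under 0.05 (edgeR), and DESeq2 also called 0. By JTK_CYCLE, a rank test of periodicity, 0 members passed in CON at a background of 0.147%, with 5 at an unadjusted p under 0.05, and 1 in SD at 1.76%, Cyp2c29 (adjusted p = 0.0426, exact null). That call was lost in 11 of 12 tests that left out 1 library.

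**Figure D4:**
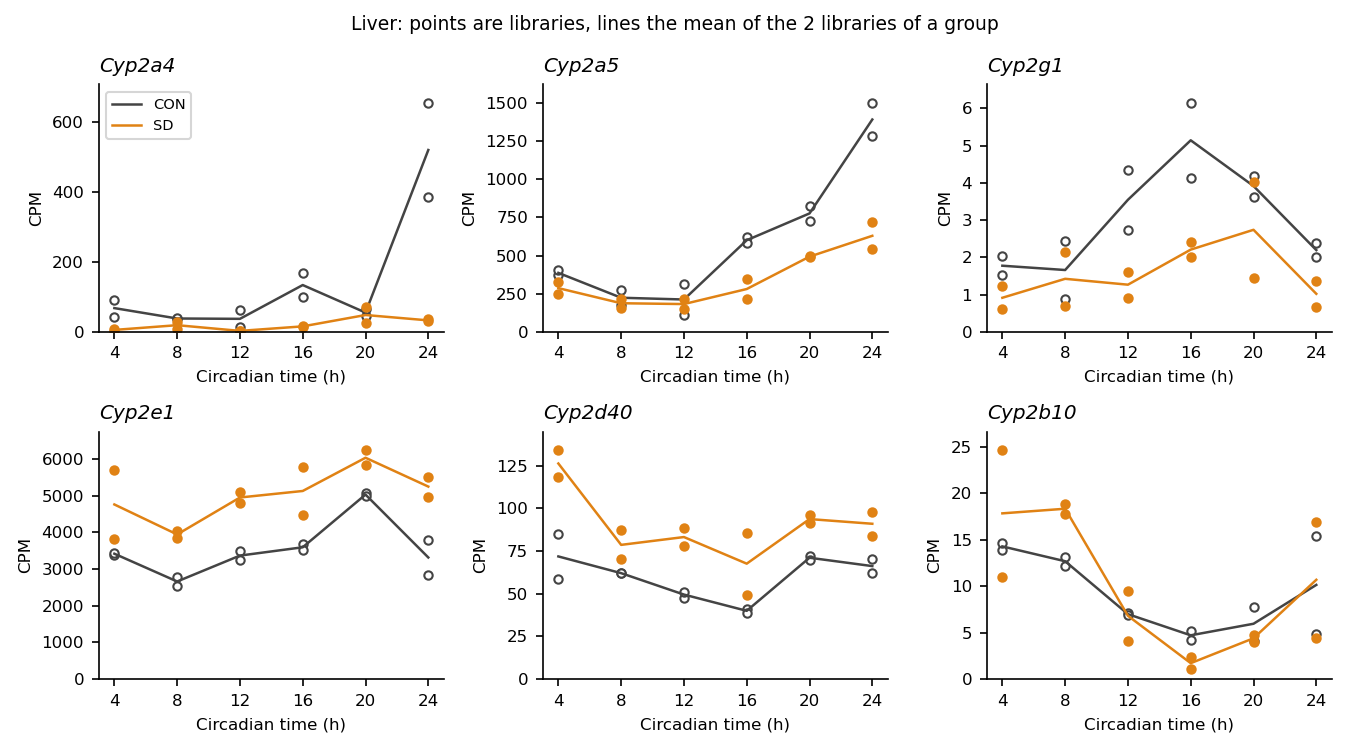
Liver level (CPM) by circadian time (h) for 6 members, open points for CON and filled points for SD libraries, with lines through the mean of 2 libraries. Cyp2a4 and Cyp2a5 are highest at CT24 in CON (656 and 1501 CPM in the highest CON library), and their means are lower in SD at every time. Cyp2e1 and Cyp2d40 lie higher in SD at every time, and Cyp2b10 falls to 1.71 CPM at CT16 in SD.

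In kidney no member differed between SD and CON over all times, and the intervals of the abundant members were narrow. Cyp2e1 had 377, 469 and 665 CPM in the lowest, median and highest CON library and 359, 506 and 643 CPM in SD (log2 0.07, 95% interval -0.10 to 0.25). Cyp2d26 had medians of 184 CPM in both (log2 0.00, interval -0.10 to 0.11), and Cyp2j11 of 265 and 279 CPM (log2 0.03, interval -0.07 to 0.12). Cyp2j13 had 214 and 189 CPM (interval -0.31 to 0.07). Cyp2a4, with 23.8 to 78.7 CPM in CON and 42.2 to 87.3 CPM in SD, had a log2 difference of 0.17 with an interval of -0.08 to 0.43, and Cyp2a5 of -0.14 with an interval of -0.37 to 0.09. The member nearest to a call was Cyp2d9, with medians of 52.9 and 63.6 CPM and a higher SD mean at 5 of 6 times (log2 0.26, SE 0.10, adjusted p = 0.223, edgeR). Among the lists, 0 of 12 sensors and regulators and 0 of 10 genes of electron and heme supply differed in kidney. Of 10 proximal tubule markers 0 differed, with a sum of 22149 to 28353 CPM in CON and 20945 to 28465 CPM in SD. Of 3 macrophage markers 2 were lower, beside 0.181% higher and 2.12% lower among all kidney genes tested.

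Over the 24 h in control kidney 2 of 26 members passed the cosine fit, at a background of 3.93% of genes (edgeR). Cyp2s1 had a difference of 0.69 and a peak at 15.3 h (adjusted p = 0.00316), with a mean of 13.3 CPM at CT4 and 20.5 CPM at CT16. Cyp2a5 had a difference of 1.02 and a peak at 19.7 h (adjusted p = 0.0349), with 29.4 CPM at CT12 and 63.0 CPM at CT20. It did not pass in 6 of 12 fits that left out 1 library, CON CT20 replicate 1 among them. The next by p were Cyp2e1 (difference 0.54, adjusted p = 0.059 by edgeR, called by DESeq2), Cyp1a1 (1.34, adjusted p = 0.119) and Cyp1b1 (0.47, adjusted p = 0.123). In SD kidney Cyp2a5 alone passed (difference 0.95, peak 22.7 h, adjusted p = 0.0156, edgeR) at a background of 1.92%, a result that did not hold in 2 of 12 fits without 1 library. It is the member that passed in both organs and both conditions, while Cyp2a4 had a difference of 0.18 in control kidney (adjusted p = 0.928). JTK_CYCLE called 0 members in either condition at backgrounds of 0.158% and 0%, with 2 and 3 members at an unadjusted p under 0.05, and the tests of any time (0.725%) and of a difference in rhythm (0%) called 0, with 6 and 1 members at an unadjusted p under 0.05 (edgeR). No single time gave a call in kidney by edgeR, with 1 to 7 members at an unadjusted p under 0.05, where the background was 0.00465% at CT4, 0.00929% at CT8, 0.0372% at CT12, 0.00465% at CT16, 0.0139% at CT20 and 0.302% at CT24. DESeq2 called Cyp2d9 at CT4 and at CT24, beside 56 and 304 of 21528 genes. Without the filter edgeR called 1 to 8 members at each time, beside 487 to 1044 of 36128 genes. In the test of any time DESeq2 called 4 members, Cyp1b1, Cyp2a5, Cyp2d9 and Cyp2j6, beside 694 of 21528 genes.

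**Figure D5:**
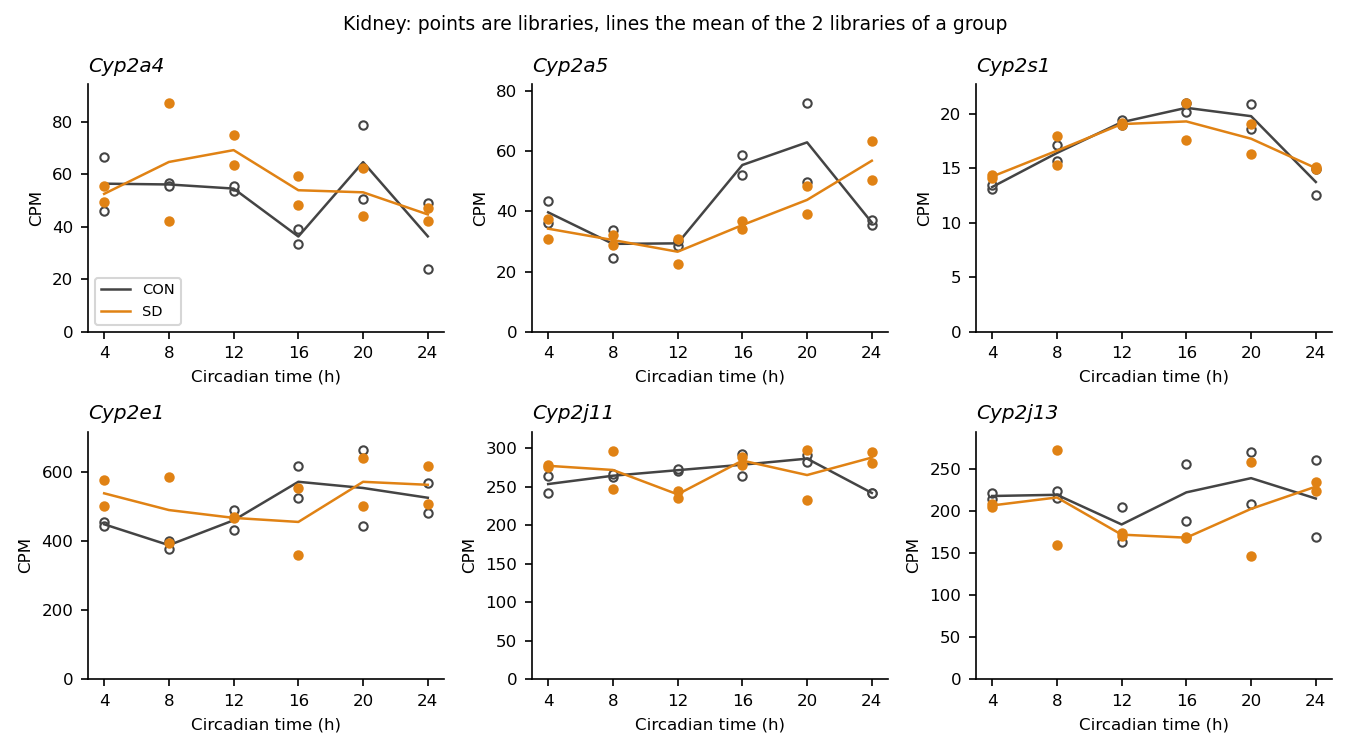
Kidney level (CPM) by circadian time (h) for 6 members, open points for CON and filled points for SD libraries, with lines through the mean of 2 libraries. Cyp2s1 rises from 13.3 CPM at CT4 to 20.5 CPM at CT16 in CON with SD close by, Cyp2a5 is highest at CT20 in CON and CT24 in SD, and Cyp2e1 runs from 377 to 665 CPM in CON.

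Whether the change after sleep deprivation differs between liver and kidney was tested directly in the 48 libraries of both organs. The test called 5 members, at a background of 6.49% of genes (edgeR), but 2 of them, Cyp2c50 and Cyp3a25, did not pass the filter on low counts in kidney alone, so a kidney change was measured for 3. For Cyp2a4 the change was lower in liver by 2.80 on the log2 scale (log2 -2.80, SE 0.45, adjusted p = 0.000168), and this held in all 48 fits that left out 1 library. For Cyp2e1 the change was more positive in liver by 0.43 (SE 0.12, adjusted p = 0.0276) and for Cyp2d26 by 0.38 (SE 0.09, adjusted p = 0.0103), and both calls were lost with library sizes alone. Cyp2c50 (3.09, SE 0.62, adjusted p = 0.00205) and Cyp3a25 (2.79, SE 0.72, adjusted p = 0.0164) rest on the kidney CON CT20 replicate 1 library. There Cyp2c50 had 1.16 CPM against at most 0.159 CPM in the other 23 kidney libraries and Cyp3a25 had 1.28 CPM against at most 0.179 CPM. Without this library the adjusted p was 0.118 for Cyp2c50 and 0.525 for Cyp3a25. Both genes are at or near the floor in the remaining kidney libraries, so these fitted differences depend on the prior count of the fit. The Cyp3a25 call was also lost without SD CT20 replicate 1 or 2 of kidney. The summed hepatocyte markers were 234 CPM in kidney CON CT20 replicate 1 against 83.7 to 133 CPM in the others.

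In the brain the members stayed low and no difference passed. Cyp2j6 had 23.9 to 32.6 CPM in CON forebrain with a median of 25.8, and Cyp2r1 had 14.1 to 22.6 CPM in CON cerebellum with a median of 19.9. The smallest p values were those of Cyp3a13 in forebrain (log2 0.25, SE 0.15, adjusted p = 0.789) and of Cyp2d22 in cerebellum (log2 0.16, SE 0.06, adjusted p = 0.907), from edgeR. Most members known from liver were near the detection limit there, and 14 in forebrain and 20 in cerebellum had no count in any control library.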

How the data were processed

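Per the labels and the study's methods, the authors trimmed paired reads of 150 bases with Trim Galore, aligned them to GRCm38 with HISAT2, used SAMtools to keep alignments of mapping quality 60, and obtained fragments per gene from featureCounts in reverse-stranded mode. The deposited values are raw counts, and the series table equalled the library files in 96 of 96 libraries. Library totals of 24.8 to 58.5 M counts set the precision of low genes.

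From these counts, edgeR 4.0.16 (R 4.3.3) with its filter on low counts (minimum count 10), TMM factors and quasi-likelihood tests was fitted to all genes of a tissue, with Benjamini-Hochberg adjustment and a threshold of 0.05. JTK_CYCLE used an exact null. CPM per kilobase used the exon length in GENCODE M21. Intervals of 95% were taken from the SE with a normal quantile. The steps were tested on simulated data. At a simulated log2 size of 1 in liver, the SD test over all times recovered 83.6% of changed genes. A rhythm of that peak-to-trough size was recovered in 55.2% by the cosine fit and in 7.46% by JTK_CYCLE. A rhythm present in SD only was recovered in 29.9% by the test of a difference in rhythm. Thus 0 calls in these rhythm tests do not show that rhythms were absent or alike. Groups came from the sample titles. Alternatives were DESeq2 1.42.0, library sizes alone, no filter, a replicate block and leaving out each library. Named were members past the SD test, a single-time, rhythm-difference or organ test, the 8 highest per length in control liver and kidney and the 3 highest in each brain tissue, the 5 with the smallest cosine p in control liver and kidney, and the 3 genes most like the member of smallest p. Other members are named for completeness, after their values were seen. The members and all gene lists (sensors and regulators, PAR bZIP factors, electron and heme supply, target genes, sex-biased genes, cell markers) were chosen with earlier results of these data known.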

Additional observations from a re-analysis of the deposited data

Results flagged for a closer look

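The change after sleep deprivation differed between liver and kidney for Cyp2a4, Cyp2e1 and Cyp2d26 by a direct test of that difference. The edgeR interaction term (liver change minus kidney change, log2 scale, 48 libraries) was -2.80, 0.43 and 0.38. Of all genes tested 6.49% were called. With library sizes alone the Cyp2e1 and Cyp2d26 calls were lost (adjusted p = 0.0712 and 0.0533, edgeR). The same test gave 3.09 for Cyp2c50 and 2.79 for Cyp3a25, which are near 0 counts in most kidney libraries and did not pass the filter there, so these values are not read as a difference between organs. For Cyp2a4 the value ran from -3.04 to -2.56 over the 48 fits that each left out 1 library. Without the kidney CON CT20 replicate 1 library, which carries the most albumin transcript of the kidney libraries, the value was 1.64 for Cyp2c50 and 0.86 for Cyp3a25, and neither was called.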

How the results depend on the processing

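Of the 20 liver calls, 13 held under every alternative run. The count of liver members changed over all times was 15 with library sizes alone, 21 by DESeq2 and 23 without the filter. Over all genes these settings called 4121 of 19708, 4243 of 19708 and 3741 of 32589. By DESeq2 the liver members called were 16 for any time, 11 for a 24 h profile in CON and 10 in SD. The same tests called 4, 5 and 6 members in kidney, and the difference between organs 8. Over all genes DESeq2 called 2017, 3237 and 3566 of 19708 in the liver tests. In kidney it called 694, 1792 and 1448 of 21528, and between organs 2547 of 22870. Without the filter the member counts were 24, 15 and 19 in liver, 15, 16 and 3 in kidney and 16 between organs. Over all genes they were 2873, 3787 and 3768 of 32589, 2705, 2353 and 1017 of 36128, and 2033 of 37541. The tests of all times in kidney and of a difference in rhythm in liver gave 2 and 4 members. Their counts over all genes were 1043 of 36128 and 409 of 32589. Library sizes alone gave 3 members in the SD kidney profile, beside 584 of 21528 genes. JTK_CYCLE in SD liver gave 0 members with TMM library sizes and 0 without the filter, beside 135 of 19708 and 160 of 32589 genes. Leaving out 1 library at a time gave 18 to 21 liver and 0 to 1 kidney members changed over all times, 0 in forebrain and cerebellum, 3 to 10 and 0 to 1 for any time in liver and kidney, 4 to 8 and 4 to 10 for the CON and SD profile in liver, 1 to 3 and 0 to 2 in kidney, 0 to 1 for JTK_CYCLE in SD liver, 3 to 10 for the difference between organs, 32 to 33 members higher in control liver and 6 in control kidney. The log2 difference of Cyp2u1 in forebrain, not called, ran from -0.0044 to 0.035 when 1 library was left out, with -0.00044 and -0.0044 without CON CT16 and CON CT4 replicate 2. The causes were not tested. What libraries of one replicate number share besides the number is not known. SD and CON libraries of one number correlated over 0.1 in 2 of 6 pairs in liver and 4 of 6 in kidney. Liver and kidney libraries of one number did so in 3 of 6 pairs in CON and 3 of 6 in SD (r up to 0.405). These correlations cannot decide whether a batch or a mouse is shared. Whether liver and kidney libraries of one number come from the same mouse is not given in the sources used here. With the replicate block 20 liver members were called over all times, 5 in the CON profile of liver and 6 between organs. Over all genes these counts were 3631 and 1587 of 19708 and 1986 of 22870. The Cyp2d40 call in the CON profile and the liver call of Cyp2c54 at any time were lost.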
